A study of Mus musculus with 8 samples.

Results

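The genes of cholesterol and fatty acid synthesis were followed in cells enriched for the receptor c-Kit from B16F10 melanomas, with PERK KO tumours set against Scramble tumours. The 30 genes were chosen by name and matched by symbol to the table of raw read counts. They were 5 regulators of the SREBP transcription factors, 17 enzymes of sterol synthesis and 8 enzymes that make, elongate or desaturate fatty acids. All 30 were found among the 55450 genes of the table, and all 30 were among the 16662 genes that passed the filter on low counts.

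RNA was sequenced from 8 libraries, each made from a tumour of its own. The 4 PERK KO libraries, numbered 1 to 4, came from tumours of B16F10 cells that lack PERK, an endoplasmic reticulum kinase that dampens protein synthesis when unfolded proteins build up. The 4 Scramble libraries, numbered 2 to 5, came from tumours of B16F10 cells with a scramble control. B16F10 is a pigmented mouse melanoma line. In both groups 150000 cells were placed under the skin of wild-type C57BL6 mice, matched for sex and 6 weeks of age, tumours were taken on day 17, and c-Kit-positive cells were collected on magnetic beads after digestion, not by flow sorting. The cells of the host keep PERK in both groups. The labels do not state how PERK was deleted, whether the PERK KO line is 1 clone, or whether any mouse carried more than 1 of the tumours, so that p-values measure the spread between these tumours. Library totals were 29006949 to 47530393 counts in PERK KO and 44950033 to 56697163 counts in Scramble tumours. The gene with most counts was mt-Cytb, a mitochondrial transcript, in all 4 PERK KO libraries, at 1.34, 5.49, 3.16 and 1.59% of the total, and Gm42418 or Gm26917 in all 4 Scramble libraries, at 1.2 to 2.22%. The TMM factor was 0.863 in PERK KO library 2 and 0.987 to 1.03 in the other 7 libraries. Levels below are in CPM, read counts relative to a library size adjusted with TMM factors, and 3 counts, a floor that covers counting error only, were worth at most 0.1 CPM.

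Eif2ak3, which encodes PERK, had 8.61, 7.73, 22.7 and 16.3 CPM in the PERK KO libraries and 53.4, 56.4, 59.2 and 48.3 CPM in the Scramble libraries, so that the 8 libraries matched their labels. Its log2 change was -1.97 with an SE of 0.31 (n = 4 and 4, edgeR adjusted p = 0.00371). The labels call the cells precursors that infiltrate the tumour. The summed level of 10 melanocyte lineage markers, the genes of pigment cells and of B16F10 itself, was 15748 to 19287 CPM in PERK KO and 23749 to 24363 CPM in Scramble tumours, while that of 10 blood progenitor markers was 126 to 294 CPM and 65.9 to 87.1 CPM, with the granule enzyme Mpo at 0 in all 8 libraries. Melanocyte lineage RNA therefore stood far above that of blood progenitors in both groups. Since the samples are bulk, fewer cells of a type and less RNA per cell cannot be told apart.

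As background, SREBP-1 and SREBP-2 are transcription factors made as membrane proteins of the endoplasmic reticulum. When sterols are scarce, the escort protein SCAP carries them to the Golgi, where proteases release the active part, which then switches on genes of sterol synthesis (mainly SREBP-2) and of fatty acid synthesis (mainly SREBP-1). When sterols are plentiful, the INSIG proteins hold SCAP back, and Insig1 is itself a target of SREBP.

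In PERK KO tumours 7 of the 30 genes fell and none rose. They were Insig1, the sterol enzymes Hmgcs1 and Dhcr7, and the fatty acid enzymes Acly, Fasn, Scd2 and Elovl6, and each was lower by between 18.0 and 36.0%. The test was edgeR's quasi-likelihood test with Benjamini-Hochberg adjustment over all 16662 genes, at an adjusted p under 0.05. The members called lower were 23.3% of the list, against 6.13% of all genes tested called lower, 7.66% called higher and 13.8% called in either direction. Of the 8 fatty acid enzymes 4 fell (50%), of the 17 sterol enzymes 2 fell (11.8%) and of the 5 regulators 1 fell (20%). The difference between the sterol and the fatty acid counts was not tested.

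The log2 changes of PERK KO over Scramble lay below 0 for 25 of the 30 genes (83.3%, against 51.9% of all genes tested). Their median was -0.26 over all 30 genes, -0.32 over the fatty acid enzymes, -0.22 over the sterol enzymes and -0.28 over the regulators, beside a median of -0.02 over all genes tested. All 8 fatty acid enzymes lay below 0, at -0.46 to -0.04, though Scd1 turned to 0.003 with RLE and 0.02 with upper-quartile scaling, while the sterol enzymes ran from -1.02 to 0.30. Every PERK KO library was below every Scramble library for 10 of the 30 genes, 4 of them fatty acid enzymes, 3 sterol enzymes and 3 regulators, against 11.1% of all genes tested. The reverse order, found for 10.2% of all genes tested, held for none of them. Small called changes were mostly falls across the whole table too: of 1250 called genes that changed by under 2-fold, 892 (71.4%) were lower.

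**Figure D1:**
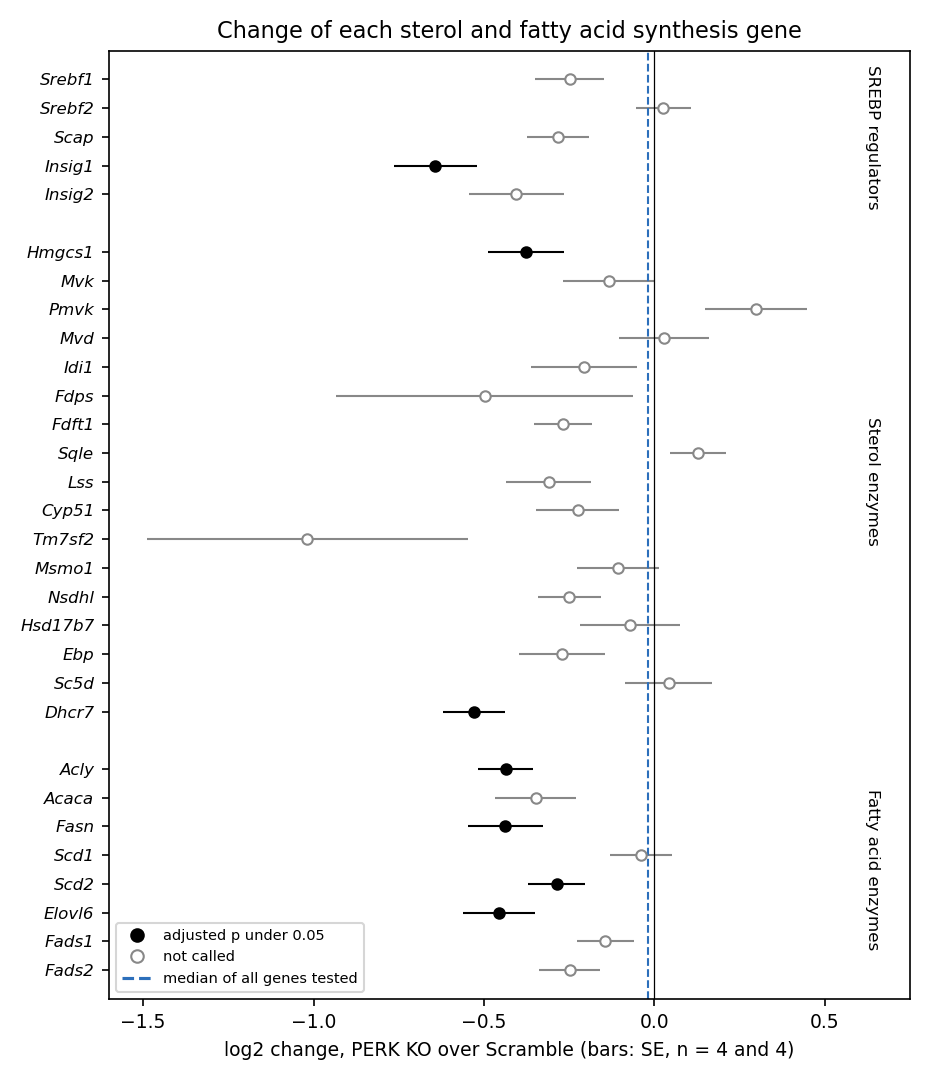
Log2 change of PERK KO over Scramble for each of the 30 genes (x axis), with bars of 1 SE (n = 4 and 4); filled points passed edgeR's adjusted p of 0.05 and the dashed line is the median of all genes tested, -0.02. The 7 filled points all lie left of 0, and only 5 of the 30 points lie right of it.

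The promoters of members from each branch are printed to show which short motifs each of them holds. RefSeq promoter windows (build GRCm38.p6, 250 bases before to 50 after a transcript start) were found for 24 of the 30 genes, and Fdps, Fdft1, Sqle, Scd1, Scd2 and Fads1 are named only. Each sequence runs 5′ to 3′ on the gene's strand, and capitals mark, on either strand, the sterol regulatory element TCACNCCAC, the E-box CACGTG and the CCAAT box. Insig1, Hmgcs1, Acly and Fasn fell, and Mvk, a sterol enzyme that did not pass the test, is shown beside them.
Insig1 (chr5:28071162-28071461, + strand): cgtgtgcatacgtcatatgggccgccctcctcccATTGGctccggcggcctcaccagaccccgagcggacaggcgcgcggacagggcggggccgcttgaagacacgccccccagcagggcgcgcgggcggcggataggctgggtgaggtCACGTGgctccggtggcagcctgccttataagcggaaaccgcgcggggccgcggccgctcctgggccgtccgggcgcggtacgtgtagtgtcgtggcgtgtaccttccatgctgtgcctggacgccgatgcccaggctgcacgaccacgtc
Hmgcs1 (chr13:119690101-119690400, + strand): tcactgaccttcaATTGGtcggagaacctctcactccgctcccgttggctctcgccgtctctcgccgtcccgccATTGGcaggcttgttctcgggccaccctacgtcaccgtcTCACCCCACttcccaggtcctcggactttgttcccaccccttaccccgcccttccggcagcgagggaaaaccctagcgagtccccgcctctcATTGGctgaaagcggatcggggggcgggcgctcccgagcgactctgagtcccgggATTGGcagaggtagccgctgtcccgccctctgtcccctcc
Mvk (chr5:114444019-114444318, + strand): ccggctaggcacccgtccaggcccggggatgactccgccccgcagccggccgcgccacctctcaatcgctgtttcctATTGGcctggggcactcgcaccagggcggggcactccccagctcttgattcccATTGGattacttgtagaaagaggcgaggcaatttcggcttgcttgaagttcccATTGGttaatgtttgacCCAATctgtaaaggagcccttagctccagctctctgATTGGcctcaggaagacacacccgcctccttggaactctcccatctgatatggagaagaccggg
Acly (chr11:100527951-100528250, - strand): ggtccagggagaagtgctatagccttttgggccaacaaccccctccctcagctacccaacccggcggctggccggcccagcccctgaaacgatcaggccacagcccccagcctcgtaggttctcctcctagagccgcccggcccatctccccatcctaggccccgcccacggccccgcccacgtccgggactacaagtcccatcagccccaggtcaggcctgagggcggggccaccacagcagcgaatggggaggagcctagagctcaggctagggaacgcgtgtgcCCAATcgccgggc
Fasn (chr11:120824498-120824797, - strand): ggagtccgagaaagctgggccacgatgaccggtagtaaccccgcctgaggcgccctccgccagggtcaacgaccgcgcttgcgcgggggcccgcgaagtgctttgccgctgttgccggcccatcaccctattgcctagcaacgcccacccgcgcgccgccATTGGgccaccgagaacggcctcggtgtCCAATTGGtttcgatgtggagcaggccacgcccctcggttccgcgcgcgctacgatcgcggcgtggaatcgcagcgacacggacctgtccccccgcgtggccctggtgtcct

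A CCAAT box, named for its letters and known as a site of the factor NF-Y, stood in a window of 20 of the 24 genes (83.3%). It stood in all 14 sterol enzymes with a window, against 42.5% of 11145 tested genes with one and 41.1% of all 27025 genes with one. Of the 5 fatty acid enzymes with a window 2 held it, Acly and Fasn. In Fasn the capitals of a run hold a CCAAT box on each strand, which overlap. The share was the same, 83.3%, in the called genes (5 of 6) and in those not called (15 of 18). The sterol regulatory element as spelled was found once, in Hmgcs1 (4.17% of the 24 genes, against 1.44% of all genes with a window). The E-box was found in 5 of the 24 (20.8%, against 8.09% of all and 11.3% of tested genes with a window), and the GC box GGGCGG, not marked in the sequences, in 20 (83.3%, against 38.2% of all and 66.7% of tested genes with a window). A match is a description of these letters, not a binding site.

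Among the regulators, Insig1 (ENSMUSG00000045294.11, mm10 chromosome 5, 28071363 to 28078662), which holds SCAP in the endoplasmic reticulum, had 93.4, 82.3, 98.2 and 65.1 CPM in PERK KO and 137, 142, 128 and 123 CPM in Scramble libraries. All PERK KO libraries were below all Scramble libraries, and library 4 was the lowest. Insig1 fell by 0.64 on the log2 scale, with an SE of 0.12 and an edgeR adjusted p of 0.00624, the steepest called fall of the 30 genes. Its paralog Insig2, which shares that role and is less responsive to SREBP, had 93.5, 83.7, 85.4 and 56.7 CPM in PERK KO and 107, 105, 94.5 and 116 CPM in Scramble libraries. The Insig2 groups did not overlap either, but the difference of -0.41 (SE 0.14) did not pass (edgeR adjusted p = 0.0775). It passed without PERK KO library 1 (-0.48, adjusted p = 0.0489). The ratio of Insig1 to Insig2 was 0.983 to 1.15 in PERK KO and 1.06 to 1.35 in Scramble libraries, and these ranges overlap.

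Scap, the escort of the SREBPs, had 111, 133, 136 and 140.4 CPM in PERK KO and 159, 159.8, 167 and 147 CPM in Scramble libraries. The groups did not overlap, and the difference of -0.28 (SE 0.09) did not pass (edgeR adjusted p = 0.0648). A gene on the opposite strand covers 13.2% of the Scap exons, and the strand setting of the counting is not given, so the Scap count is uncertain. Srebf1, which encodes SREBP-1, had 70.4 ± 7.32 CPM in PERK KO and 83.6 ± 7.0 CPM in Scramble libraries (SD, n = 4 each), at a log2 difference of -0.25 (edgeR adjusted p = 0.136). Srebf2, which encodes SREBP-2, was the most abundant regulator per kilobase of exon, at 50.6 CPM per kb in PERK KO and 49.7 CPM per kb in Scramble tumours. Its libraries spanned 337 to 388 CPM in PERK KO and 329 to 369 CPM in Scramble tumours and overlapped widely (log2 difference 0.03, edgeR adjusted p = 0.887). That sign turned to -0.05 with scaling by library totals only.

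Sterol synthesis begins with the mevalonate steps, in which 1 of 6 genes fell (16.7%, against 6.13% of all genes tested called lower). Hmgcs1 (ENSMUSG00000093930.2, chromosome 13, 119690379 to 119708260), the synthase that commits acetyl units to the pathway, had 210.5, 146, 156 and 168 CPM in PERK KO and 223, 234, 208 and 218 CPM in Scramble libraries. PERK KO library 1 lay within the Scramble range and the other 3 lay below it. Hmgcs1 fell by 0.38 on the log2 scale, with an SE of 0.11 and an edgeR adjusted p of 0.0435. This call ended without any 1 library other than PERK KO library 1 (edgeR adjusted p = 0.0727 to 0.129) and stood without that library (-0.48, adjusted p = 0.00665). It also ended with RLE, upper-quartile or library-total scaling, the stricter filter and a fit that is not robust (adjusted p = 0.0513 to 0.08). A gene on the opposite strand covers 12.1% of its exons, so the count is uncertain.

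The other mevalonate genes gave differences of either sign, and none passed. Mvk and Pmvk, the kinases that phosphorylate mevalonate in turn, had 26.0 to 40.9 and 23.5 to 35.4 CPM in PERK KO, against 34.4 to 36.9 and 24.0 to 30.2 CPM in Scramble libraries. Pmvk had the highest log2 difference of the 30 genes, 0.30 (SE 0.15, edgeR adjusted p = 0.231). Its PERK KO library 3, at 23.5 CPM, was below all Scramble libraries while the other 3 PERK KO libraries were above them all, and without it the difference was 0.42 (adjusted p = 0.0398). Mvd, the decarboxylase that follows, differed by 0.03 (edgeR adjusted p = 0.933), a sign that turned to -0.05 with library totals only. Idi1, the isomerase of the resulting isoprene unit, differed by -0.21 (adjusted p = 0.464). Fdps, which joins these units to farnesyl diphosphate, was listed at only 1.09 to 3.41 CPM in PERK KO and 2.88 to 3.33 CPM in Scramble libraries, or 0.515 and 0.728 CPM per kb. Of its exons, 1124 bases overlap a gene on the same strand and 26.2% of its 50-base words occur in other genes, as do 25.3% of those of Idi1, so both counts are uncertain.

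From squalene to cholesterol, 1 of 11 genes fell (9.09%, near the 6.13% of all genes tested called lower). Dhcr7 (ENSMUSG00000058454.15, chromosome 7, 143823145 to 143848410), a reductase that makes cholesterol in a last step of the pathway, had 172, 199.9, 185 and 156 CPM in PERK KO and 237, 261, 259 and 272 CPM in Scramble libraries. The highest PERK KO library was well below the lowest Scramble library. Dhcr7 fell by 0.53 on the log2 scale, with an SE of 0.09 and an edgeR adjusted p of 0.0042, the smallest adjusted p of the 30 genes. The call ended in 2 of the 18 alternative fits described below.

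Fdft1, the squalene synthase that turns the pathway to sterols alone, had 108, 102, 102 and 87.2 CPM in PERK KO and 119, 119, 118 and 125 CPM in Scramble libraries. The groups did not overlap, and the difference of -0.27 (SE 0.09) did not pass (edgeR adjusted p = 0.0613). It passed without PERK KO library 1 (-0.30, adjusted p = 0.0419). Exons of Ctsb, a protease gene on the opposite strand, cover 18.3% of the Fdft1 exons, so the count is uncertain. Nsdhl, which takes part in removing methyl groups from lanosterol derivatives, was the other gene of this stretch without overlap, at 55.9 to 63.7 CPM in PERK KO and 63.8 to 76.5 CPM in Scramble libraries (log2 difference -0.25, edgeR adjusted p = 0.098).

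Sqle, the epoxidase that acts on squalene and a rate-limiting step, stood apart in sign from its neighbours. It had 152, 149, 154 and 136 CPM in PERK KO and 140.4, 129, 144 and 128 CPM in Scramble libraries, of which 3 PERK KO libraries were above all Scramble libraries. The difference of 0.13 (SE 0.08) did not pass (edgeR adjusted p = 0.372). Lss, the cyclase that forms lanosterol, and Cyp51, the demethylase that follows, differed by -0.31 (edgeR adjusted p = 0.129) and -0.23 (0.271). Cyp51 was the most abundant sterol enzyme per kilobase, at 50.6 CPM per kb in PERK KO and 59.1 CPM per kb in Scramble tumours. Its PERK KO library 1, at 287 CPM, was above all Scramble libraries and the other 3, at 191 to 208 CPM, were below them all. Without that library Cyp51 differed by -0.36 (adjusted p = 0.0204).

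Ebp, a sterol isomerase, differed by -0.27 (edgeR adjusted p = 0.199), and by -0.37 without PERK KO library 1 (adjusted p = 0.0483). Msmo1, Hsd17b7 and Sc5d, the oxidase, reductase and desaturase between lanosterol and the last steps, differed by -0.11, -0.07 and 0.04, with edgeR adjusted p of 0.665, 0.838 and 0.889. The sign of Sc5d turned without PERK KO library 1 (-0.09), as did that of Hsd17b7 (0.05), and that of Sc5d also with library totals only (-0.02). Tm7sf2, a sterol reductase, had the lowest log2 difference of the 30 genes, -1.02, at the largest error (SE 0.47, edgeR adjusted p = 0.191). It was read at 0.806 to 3.66 CPM in PERK KO and 3.02 to 6.17 CPM in Scramble libraries, and 532 bases of its exons overlap Vps51 on the same strand, so its count is uncertain.

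Of the 3 genes that build palmitate 2 fell (66.7%, against 6.13% of all genes tested called lower). Acly (ENSMUSG00000020917.17, chromosome 11, 100476353 to 100528000), which splits citrate to supply acetyl-CoA, had 381, 359, 347 and 321 CPM in PERK KO and 493, 472, 491 and 449 CPM in Scramble libraries. It fell by 0.44 on the log2 scale, with an SE of 0.08 and an edgeR adjusted p of 0.00544, with no overlap between the groups. Acaca, the acetyl-CoA carboxylase that commits acetyl units to fatty acids, had 96.5, 84.1, 113 and 86.9 CPM in PERK KO and 130.4, 137, 106 and 111 CPM in Scramble libraries. Those groups overlapped through PERK KO library 3, and the difference of -0.35 (SE 0.12) did not pass (edgeR adjusted p = 0.0738). It passed without that library (-0.44, adjusted p = 0.0237), and since 30.4% of the 50-base words of Acaca occur in other genes, its count is uncertain.

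Fasn (ENSMUSG00000025153.9, chromosome 11, 120805846 to 120824547), the synthase that assembles palmitate, had 686, 645, 744 and 527 CPM in PERK KO and 911, 967, 846 and 798 CPM in Scramble libraries. The groups did not overlap, and library 4 was again the lowest. Fasn fell by 0.44 on the log2 scale, with an SE of 0.11 and an edgeR adjusted p of 0.0226. The call ended without Scramble library 2 or 3 (edgeR adjusted p = 0.0688 and 0.0833) and with upper-quartile scaling (0.0649).

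Of the elongase and desaturases, Elovl6 and Scd2 fell. Elovl6 (ENSMUSG00000041220.10, chromosome 3, 129532355 to 129638495), which extends palmitate to stearate, had 99.2, 75.7, 70.5 and 80.6 CPM in PERK KO and 113, 107, 112 and 115 CPM in Scramble libraries. The Scramble libraries lay close together (SD 3.14 CPM), all above the PERK KO libraries, and Elovl6 fell by 0.46 on the log2 scale, with an SE of 0.11 and an edgeR adjusted p of 0.0162. Scd2 (ENSMUSG00000025203.6, chromosome 19, 44293674 to 44306864), a desaturase that makes monounsaturated fatty acids, was the most abundant of the 30 genes per kilobase, at 244 CPM per kb in PERK KO and 297 CPM per kb in Scramble tumours. It had 1429.9, 1309, 1346 and 1243 CPM in PERK KO and 1718, 1652, 1662 and 1464 CPM in Scramble libraries. The highest PERK KO library came close to Scramble library 5, without overlap, and Scd2 fell by 0.29 on the log2 scale, with an SE of 0.08 and an edgeR adjusted p of 0.0427. The Scd2 call ended without PERK KO library 2 or 4 or Scramble library 2, 3 or 4 (edgeR adjusted p = 0.0756, 0.0934, 0.137, 0.123 and 0.117), and with RLE or upper-quartile scaling, either other filter and a fit that is not robust (0.0529 to 0.121).

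Scd1, the paralog of Scd2 with the same reaction, had 327, 307, 284 and 251 CPM in PERK KO and 311, 299, 292 and 298 CPM in Scramble libraries. Its PERK KO libraries lay on both sides of the Scramble libraries, and the difference of -0.04 (SE 0.09) did not pass (edgeR adjusted p = 0.859). The sign also turned without PERK KO library 4 (0.03). The ratio of Scd1 to Scd2 was 0.202 to 0.234 in PERK KO and 0.176 to 0.204 in Scramble libraries, and the ranges overlap at Scramble library 5. Of the 50-base words, 4.56% of Scd1 and 3.97% of Scd2 occur in other genes, among them each other, so reads of the pair may be split or dropped. Fads1 and Fads2, which desaturate polyunsaturated fatty acids, differed by -0.14 and -0.25 (edgeR adjusted p = 0.314 and 0.0905), with overlap at both genes.

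**Figure D2:**
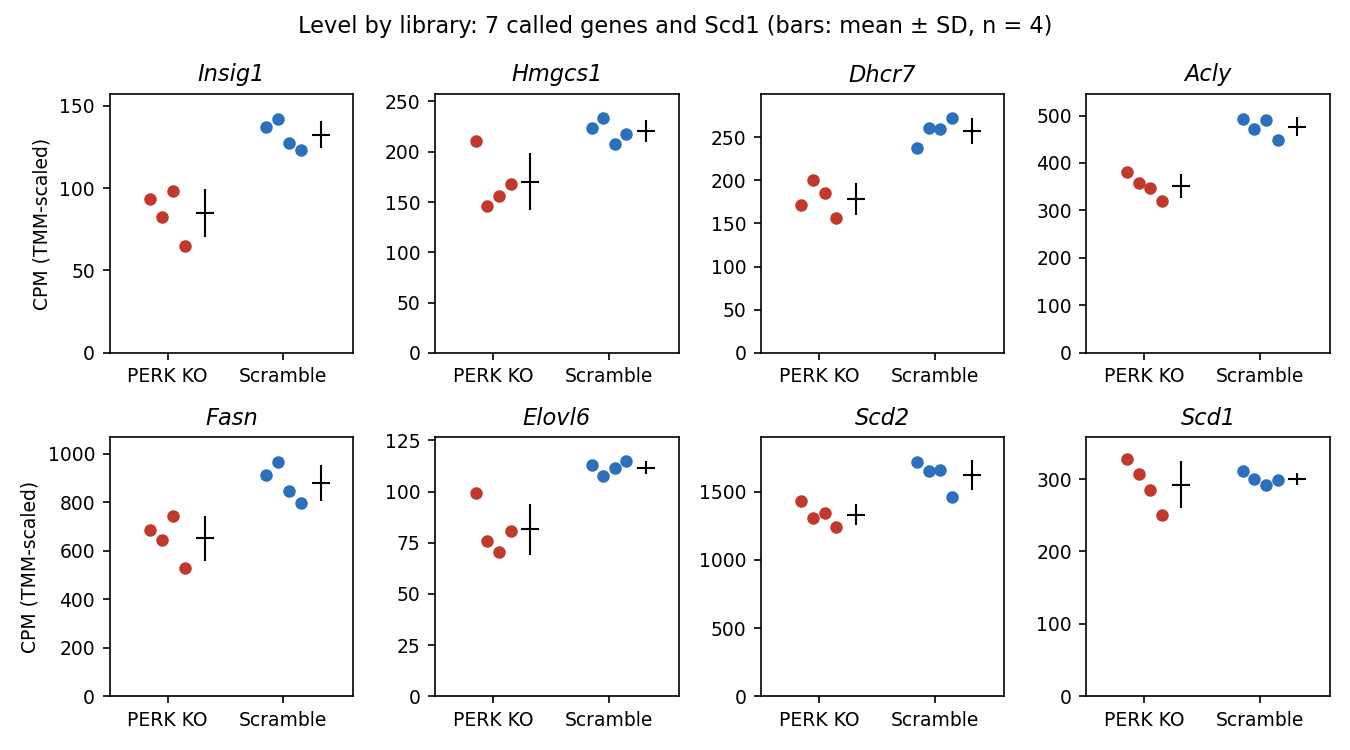
Level in CPM, TMM-scaled, of the 7 called genes and Scd1 in each PERK KO (left) and Scramble (right) library; bars give the mean and SD over 4 libraries. The groups are apart for 6 genes, overlap for Hmgcs1 through PERK KO library 1 at 210.5 CPM, and are interleaved for Scd1.

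Within PERK KO tumours the genes varied together by library. Library 4 was the lowest of the 4 for 20 of the 30 genes (66.7%, against 22.6% of all genes tested) and library 1 the highest for 15 (50%, against 23.6%). The median deviation of the sterol enzymes from the Scramble mean was -0.06, -0.20, -0.23 and -0.33 on the log2 scale in PERK KO libraries 1 to 4, and -0.05 to 0.03 in Scramble libraries. That of the fatty acid enzymes was -0.21, -0.36, -0.20 and -0.43 in PERK KO and -0.10 to 0.05 in Scramble libraries. Library 1 was thus near the Scramble level for sterol enzymes and below it for fatty acid enzymes. The coefficient of variation over libraries was larger in PERK KO than in Scramble tumours for 26 of the 30 genes (86.7%, against 82.3% of all genes tested). Its median over the 30 genes was 14.5% in PERK KO and 6.32% in Scramble tumours, against 25.6% and 13.2% over all genes tested.

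**Figure D3:**
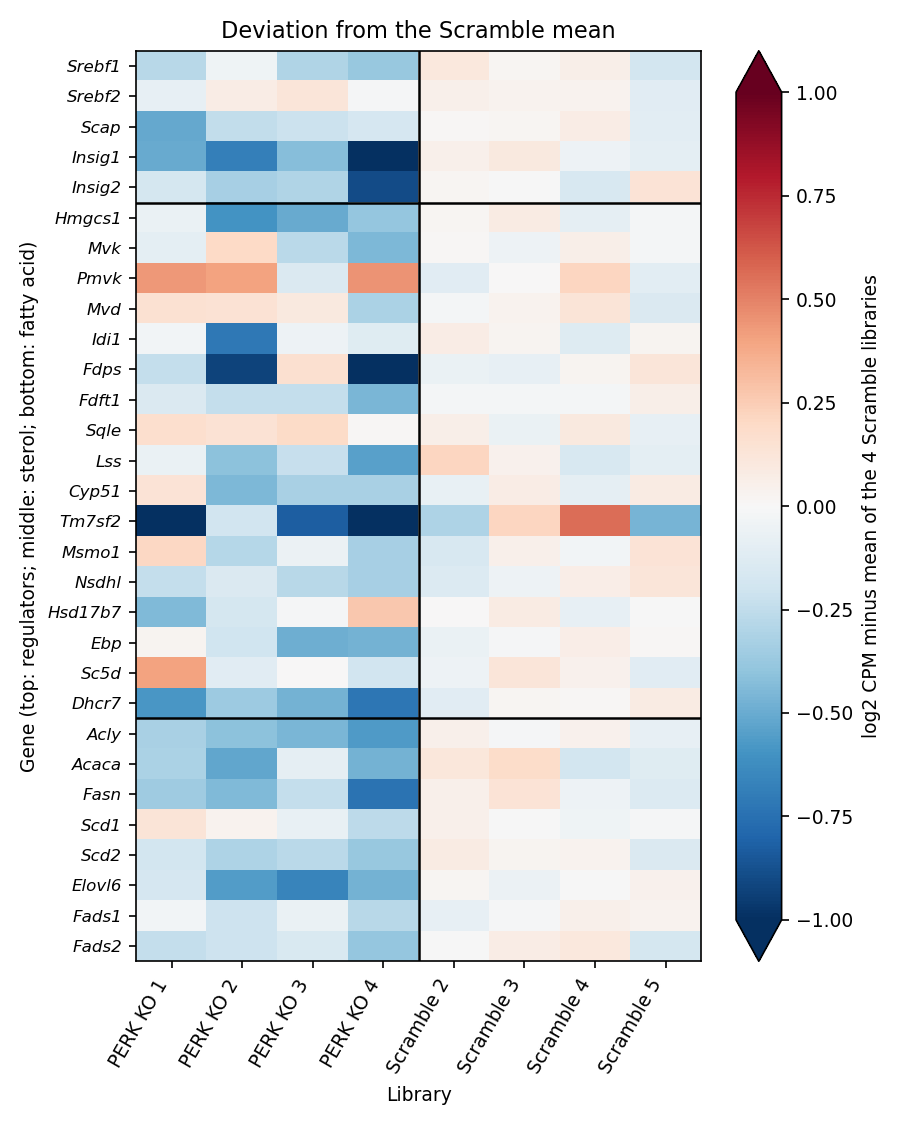
Deviation of log2 CPM from the mean of the 4 Scramble libraries for each gene (rows) in each library (columns, PERK KO left of Scramble); colours end at -1 and 1, and blue is lower. Blue fills most of the fatty acid rows in all 4 PERK KO libraries, whose medians ran from -0.43 to -0.20, while sterol rows in PERK KO library 1, with a median of -0.06, hold both colours.

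Summed over each group of enzymes, the level of the 17 sterol genes was 1551, 1306, 1338 and 1239.8 CPM in PERK KO and 1529, 1614, 1563 and 1613 CPM in Scramble libraries. The sums overlapped through PERK KO library 1. The 8 fatty acid genes summed to 3399.8, 3144, 3293 and 2842 CPM in PERK KO and 4086, 4065, 3953 and 3633 CPM in Scramble libraries, without overlap. Fatty acid enzymes took 2.19 to 2.46 CPM per CPM of sterol enzymes in PERK KO and 2.25 to 2.67 in Scramble libraries, ranges that overlap.

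Markers of the cells in the fraction also differed between the groups. Of the 10 melanocyte lineage markers, 6 fell and none rose, at a median log2 change of -0.44. Among PERK KO libraries their sum was lowest in library 4, at 15748 CPM, as were the sterol and fatty acid sums. It was highest in library 2, at 19287 CPM, whereas both enzyme sums were highest in library 1. Most of the marker sum came from Tyrp1, Dct and Pmel, with Scramble means of 7791, 7777 and 4705 CPM. Their log2 changes were -0.45, -0.33 and -0.43, within a range of -1.57 to -0.15 over the 10 markers. Mitf, Sox10 and Mlana, at -0.22, -0.26 and -0.15, were not called, nor was Dct. A ratio to this sum thus depends mainly on a few pigment genes. Per 100 CPM of melanocyte markers, the sterol enzymes took 6.77 to 8.10 CPM in PERK KO and 6.38 to 6.79 CPM in Scramble libraries. The fatty acid enzymes took 16.3 to 18.0 CPM and 15.3 to 17.0 CPM. Both ranges overlap, and the PERK KO means, 7.51 and 17.5 CPM, lay above the Scramble means, 6.57 and 16.4 CPM. On the same scale the regulators took 3.67 to 4.32 CPM in PERK KO and 3.32 to 3.59 CPM in Scramble libraries, with every PERK KO library above. Srebf2 alone, at a log2 difference of 0.03, gave 363 of the mean regulator sum of 728 CPM in PERK KO. Before this scaling Srebf1, Scap, Insig1 and Insig2 lay at -0.25, -0.28, -0.64 and -0.41. The ratio overlapped between groups for each of the 7 called genes. Insig1, at 0.414 to 0.536 CPM in PERK KO and 0.519 to 0.581 CPM in Scramble libraries, had the lowest log2 ratio of PERK KO over Scramble means on this scale among the 7, -0.24, followed by Dhcr7 at -0.12.

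Among other cells, all 10 pan-leukocyte markers rose, with sums of 274 to 1103 CPM in PERK KO and 57.6 to 115 CPM in Scramble libraries, and the highest sum was in PERK KO library 4. Macrophage markers summed to 213 to 635 CPM in PERK KO and 55.4 to 110.3 CPM in Scramble libraries (9 of 10 rose), and mast cell markers to 706 to 3121 CPM and 23.3 to 166 CPM (10 of 10 rose). Gland epithelium markers summed to 113 to 329 CPM in PERK KO and 2.49 to 7.91 CPM in Scramble libraries, where 10 of 13 tested markers rose. Of the 9 tested blood progenitor markers 5 rose. Adipocyte markers, from a cell type rich in fatty acid enzymes, summed to 2.75 to 9.38 CPM in PERK KO and 2.11 to 2.75 CPM in Scramble libraries, mostly Lipe, with Adipoq, Retn and Pck1 at 0 in all 8 libraries. Keratinocyte and sebocyte markers, with Krt1 and Lor at 0 throughout, reached 5.07 CPM at most. Fibroblast and mural markers (1 of 10 rose) and endothelial markers (none of 10 passed) overlapped between groups, at 65.2 to 255 and 319 to 566 CPM in PERK KO and 21.3 to 238 and 334 to 497 CPM in Scramble libraries. The part of leukocyte, mast and epithelial cells in the members' levels was not tested.

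**Figure D4:**
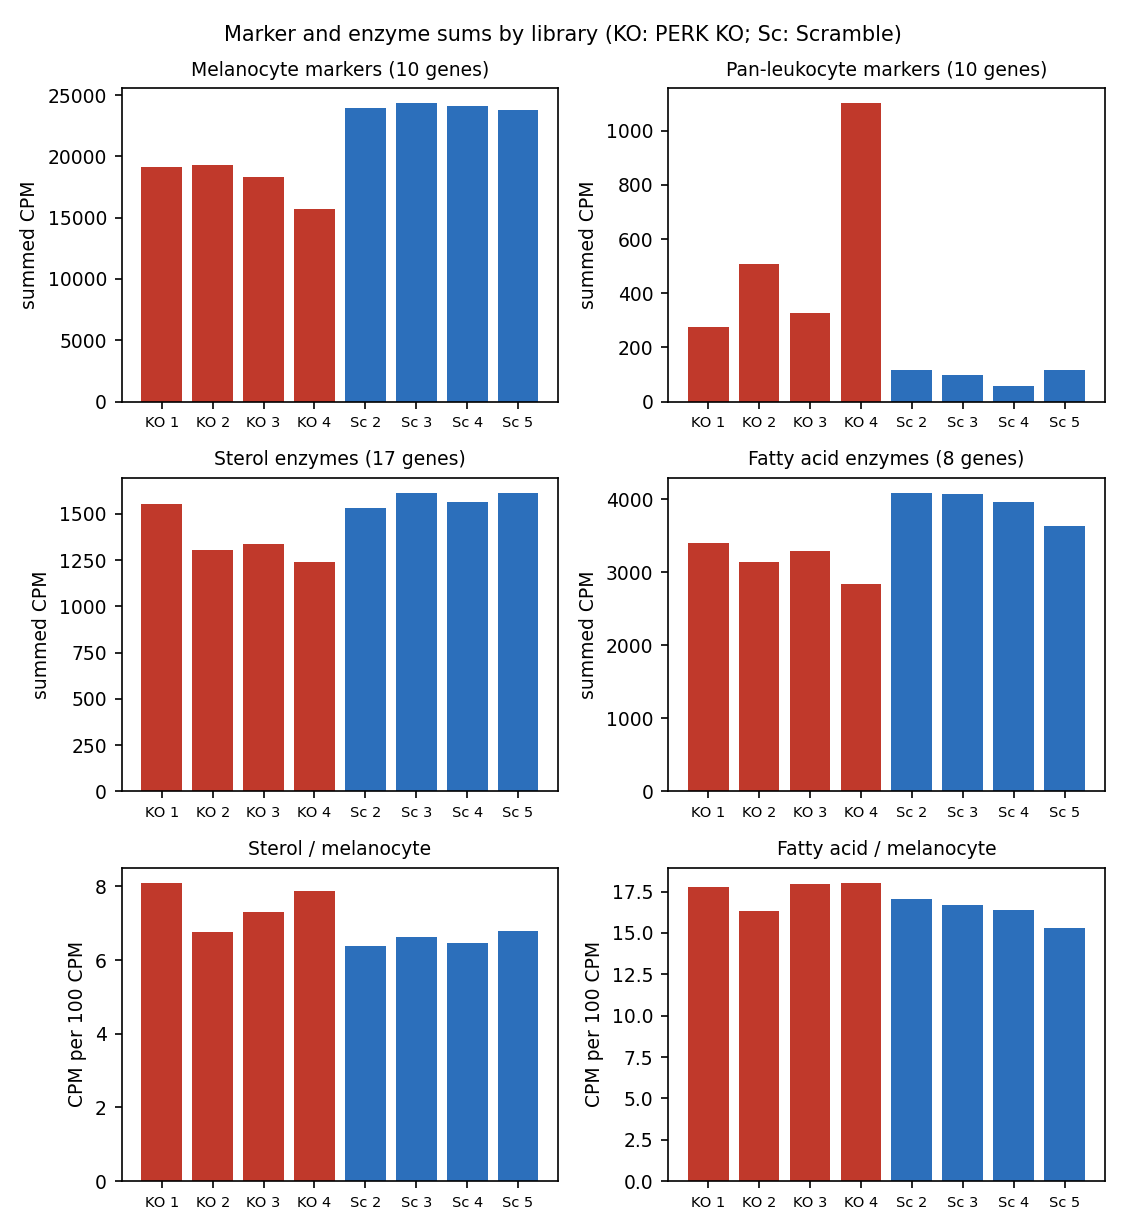
Summed CPM per library of melanocyte and pan-leukocyte markers (top), of sterol and fatty acid enzymes (middle), and of those enzymes per 100 CPM of melanocyte markers (bottom); PERK KO libraries (KO 1 to KO 4) stand left of Scramble libraries (Sc 2 to Sc 5). The fatty acid sum is lower in all 4 PERK KO libraries, at 2842 to 3399.8 CPM, while per melanocyte CPM it overlaps, at 16.3 to 18.0 in PERK KO and 15.3 to 17.0 in Scramble libraries.

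Around the 30 genes, 121 other lipid genes in 6 lists were followed, of which 117 were tested, 10 fell (8.55%, against 6.13% of all genes tested) and 5 rose (4.27%, against 7.66%). The count of 15 calls was 8 without Scramble library 2 or 3 and 9 without Scramble library 4. Of 14 genes of SREBP processing and sterol-regulated degradation, Mbtps1, a Golgi protease that cuts SREBP, fell by 0.34 on the log2 scale, with an edgeR adjusted p of 0.0405. Sec24d, a coat protein of the vesicles that leave the endoplasmic reticulum, rose. It had 115, 81.2, 81.6 and 82.2 CPM in PERK KO and 58.4, 59.3, 59.4 and 61.3 CPM in Scramble libraries, clear of each other (51.1% higher, edgeR adjusted p = 0.0081). Of 14 tested genes of the isoprenoid branches and other sterol steps, 1 fell, Lbr, a nuclear membrane protein that is also a sterol reductase (-0.55, edgeR adjusted p = 0.0218).

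Among 21 genes of sterol transport, storage and the LXR receptors, 3 fell and 2 rose. Vldlr, a receptor that takes up lipoproteins, had 4.12, 4.00, 3.13 and 4.32 CPM in PERK KO and 9.88, 8.98, 12.0 and 13.3 CPM in Scramble libraries, with all PERK KO libraries lower (-1.51, SE 0.23, edgeR adjusted p = 0.00246). Nr1h2, the sterol-sensing receptor LXR-beta, fell by 0.48 on the log2 scale (edgeR adjusted p = 0.00526), and so did Npc1, which exports cholesterol from lysosomes and is named after its value was seen (-0.35, adjusted p = 0.0199). Abca1, the pump that exports cholesterol from cells, had 27.7, 41.9, 36.7 and 47.1 CPM in PERK KO and 18.2, 18.3, 8.69 and 15.9 CPM in Scramble libraries, all PERK KO libraries being higher (1.33, SE 0.23, edgeR adjusted p = 0.0043). Lrp1, an endocytic receptor, rose by 0.82 (edgeR adjusted p = 0.019), with an overlap at PERK KO library 1. Macrophages are known to express both genes, and the macrophage marker sums were 213 to 635 CPM in PERK KO and 55.4 to 110.3 CPM in Scramble libraries. Their part in these rises was not tested.

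Of 30 tested genes of other fatty acid synthesis, elongation and activation, 3 fell and 1 rose. Idh1, a cytosolic source of the NADPH that synthesis uses, had 27.3, 30.5, 26.7 and 28.2 CPM in PERK KO and 52.8, 47.8, 44.9 and 45.2 CPM in Scramble libraries, far apart, and fell by 0.76 on the log2 scale, with an SE of 0.10 and an edgeR adjusted p of 0.00129. Acsl3, which activates fatty acids for lipid synthesis, and Hacd3, a dehydratase of elongation, fell by 0.68 and 0.47 on the log2 scale (edgeR adjusted p = 0.0146 and 0.0294). Hacd4, a relative of Hacd3, rose by 0.77 (adjusted p = 0.0457). In the glycerolipid and lipid droplet list 1 of 17 rose, Hilpda, a droplet protein that inhibits fat breakdown (0.47, edgeR adjusted p = 0.0351). In the fatty acid uptake and oxidation list 1 of 21 fell, Ppargc1a, a coactivator of mitochondrial genes, at 128, 95.5, 127 and 119 CPM in PERK KO and 250.3, 270.3, 248.9 and 268 CPM in Scramble libraries. Its libraries were far apart between the groups (-1.14, SE 0.10, edgeR adjusted p = 0.000114). The medians of these 6 lists, 0.00, -0.09, 0.08, 0.01, -0.06 and 0.14 in the order given, lay nearer to 0 than those of the sterol and fatty acid enzymes.

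**Figure D5:**
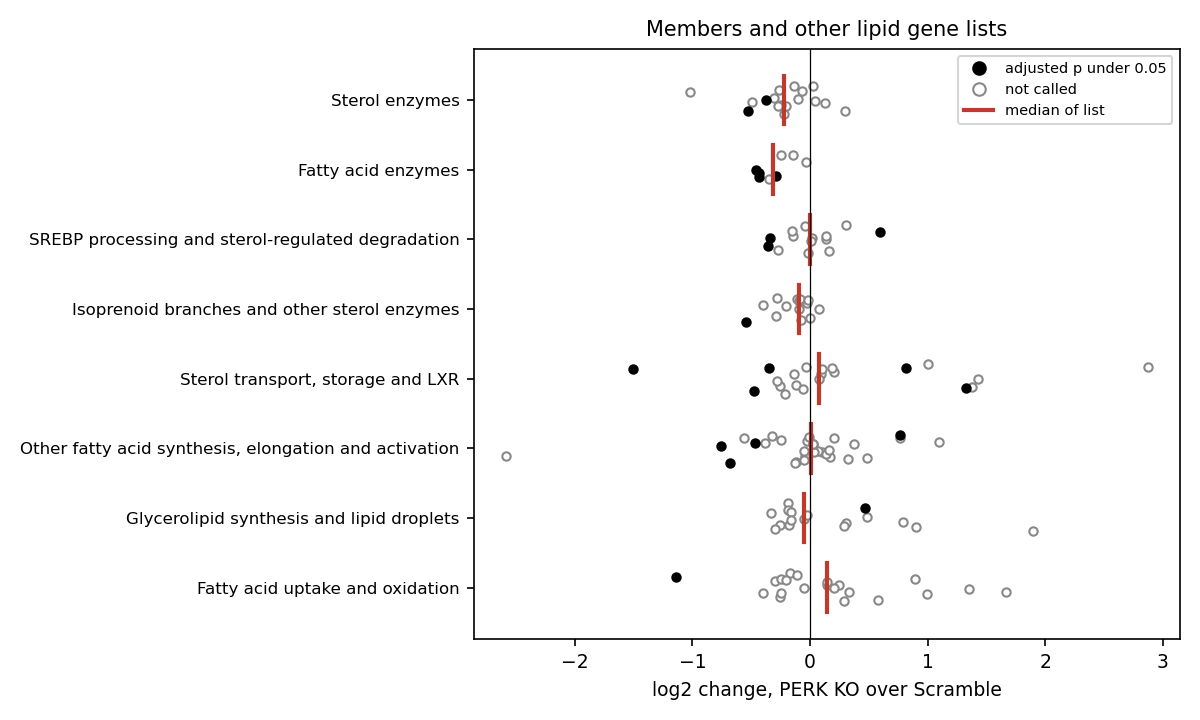
Log2 change of PERK KO over Scramble (x axis) for each tested sterol and fatty acid enzyme and each tested gene of the 6 other lipid lists; filled points passed edgeR's adjusted p of 0.05 and red bars mark each list's median. The 2 enzyme lists have medians of -0.22 and -0.32, and the other 6 lists lie between -0.09 and 0.14.

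The falls of the 7 genes were modest and the count of calls moved with single libraries: 11 of the 30 genes were called without PERK KO library 1, and 4 without Scramble library 2 or 3. Without PERK KO library 2, which had the most mt-Cytb and the lowest TMM factor, 5 were called, and with library totals in place of TMM 11 were called. The sterol enzymes called lower were 5 without PERK KO library 1 and 1 (Dhcr7) without PERK KO library 3, where Pmvk was called higher, and their count was 1 without any other single library; the fatty acid count was 2 without Scramble library 2 or 3, and the regulator count was 2 without PERK KO library 1.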

How the data were processed

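RNA sequencing measured 8 libraries of c-Kit-enriched tumour cells, 4 PERK KO and 4 Scramble, grouped by their titles. Per the submitters' processing notes, the authors worked on mm10 with bcl2fastq, DESeq2 1.30.1, HTSeq 0.6.1 and STAR 2.5.3a. The settings, strand included, are not given in the sources used here. The deposited raw table holds counts, whole numbers per gene and library, as the authors made them. The deposited normalized values, a signal equal to the counts divided by 1 factor per library, were used for no result. Libraries were specific to strand, made from 100 ng of RNA and read as pairs of 105 bases, per the labels.

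Counts were filtered with filterByExpr by group, scaled with TMM and tested by edgeR 4.0.16 (robust quasi-likelihood fit on group, Benjamini-Hochberg adjusted p of 0.05 over 16662 genes) under R 4.3.3. Over all genes the biological coefficient of variation was 46.3%. The prior count for log2 CPM was 2, and ± marks the SD. Positions, exon lengths and overlaps came from a GENCODE annotation of mm10, and promoter windows from RefSeq. The 30 genes, the 6 lipid lists, the 10 marker lists and the tests were chosen with earlier results of these data known, so no list is independent evidence of its direction. Named genes were all 30, Eif2ak3, and from each lipid list up to 4 called genes with the smallest p. Of these, 1 called lipid gene is not reported here. Replicate numbers 2 to 4 occur in both groups, and nothing in the labels ties them. Alternatives were DESeq2 1.42.0, limma 3.58.1 (voom), other scalings and filters, a fit that is not robust, the omission of each library in turn, and a replicate block. Other tools were the package data.table (version 1.17.8), Python 3.11.15, matplotlib 3.10.9, pandas 2.3.3 and numpy 2.4.6.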

Additional observations from a re-analysis of the deposited data

Results flagged for a closer look

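In 5 of 60 groups of 4 libraries examined (30 genes in PERK KO and in Scramble tumours), 1 library stood far from the other 3 by the gap relative to the group's range, which chance gives in about 1 of 20 such groups. Pmvk had 23.5 CPM in PERK KO library 3, against 34.4 to 35.4 CPM in the other PERK KO libraries. Mvd had 22.9 CPM in PERK KO library 4, against 30.6 to 31.7 CPM in the others. Idi1 had 16.8 CPM in PERK KO library 2, against 25.5 to 27.1 CPM in the others. Srebf2 had 329 CPM in Scramble library 5, against 364 to 369 CPM in the other Scramble libraries. Fdft1 had 125 CPM in the same library, against 118 to 119 CPM in the others. None of the 5 genes was called with all 8 libraries.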

How the results depend on the processing

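The medians of the sterol, fatty acid and regulator log2 changes stayed below 0 in all 18 alternatives, at -0.287 to -0.168 for sterol enzymes and -0.386 to -0.257 for fatty acid enzymes. Counts of calls moved more, and the cause was not tested. Of the 30 genes (7 called), 4 were called with upper-quartile factors, 11 with library totals only and 4 to 11 without 1 library. Of sterol enzymes (2), 1 was called with RLE or upper-quartile factors, the stricter filter or the fit that is not robust, and 1 to 5 without 1 library, with 1 call higher (Pmvk, without PERK KO library 3). Of fatty acid enzymes (4), 2 were called with upper-quartile factors and 2 to 5 without 1 library. Of regulators (1), 4 were called with library totals only, 2 without a filter or with limma-voom and 1 to 2 without 1 library. Over all genes (2299 called, 1277 of them higher), upper-quartile factors gave 1430 higher of 2083 and library totals 1065 of 2234, and leaving out 1 library gave 1078 to 2616 calls. The lipid lists gave 8 to 18 calls without 1 library. Insig1, Acly and Elovl6 kept their call in 17 of 18 alternatives.

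The labels do not say whether the replicate numbers pair the tumours. Same-numbered libraries had correlations of their deviations of -0.009, 0.098 and -0.204, beside -0.094 to 0.145 for libraries of different number. So few correlations cannot decide whether tumours shared a batch. With a replicate block over numbers 2, 3 and 4, which uses 6 libraries, 199 genes were called, and 0 of the 30, of the sterol enzymes, of the fatty acid enzymes and of the regulators. Without the block the same 6 libraries, an alternative added after seeing the data, gave 1334 calls, 4 of the 30, 1 sterol and 2 fatty acid enzymes. With the block Mvd, Hsd17b7 and Sc5d changed sign (-0.031, 0.066 and -0.096), as they did without it in those libraries (-0.017, 0.074 and -0.095).

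Other changes of sign were all in genes not called. Scd1 was at 0.003 with RLE factors and with DESeq2, 0.021 with upper-quartile factors and -0.088 to 0.026 without 1 library. Library totals only gave -0.048 for Srebf2, -0.05 for Mvd and -0.023 for Sc5d. Without 1 library Srebf2 ran from -0.015 to 0.071, Mvd from -0.023 to 0.125, Hsd17b7 from -0.204 to 0.047 and Sc5d from -0.091 to 0.109. Over the 30 genes and 18 alternatives, 472 of 540 values kept their direction and call. A gene not called counted as kept when it stayed so with the same sign, so this total says little about the 7 called genes. Of these, Dhcr7 kept its call in 16 of the 18 alternatives, Fasn in 13, Scd2 in 6 and Hmgcs1 in 5. The lowest counts in any library were 42 for Fdps and 31 for Tm7sf2.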
